A study of Rattus norvegicus with 30 samples.

Results

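The genes described here encode acyl-CoA synthetases, the enzymes that join a fatty acid to coenzyme A. They are Acsl1, Acsl3, Acsl4, Acsl5 and Acsl6, which act on long-chain fatty acids, Acsm3, which acts on medium-chain fatty acids, and Acss2, which acts on acetate. Every probe set of the array that was annotated to one of these 7 symbols alone was taken, which gave 11 probe sets of the 31042 tested, for 7 of 14217 genes. The genes were chosen by their levels in these same arrays, by group and in 3 control rats that stood apart, so their group differences are given as a description, also where a p-value is printed.

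Liver RNA was measured in 30 female Sprague-Dawley rats, approximately 10 weeks old, with 1 array per rat and 10 rats per group. Rats of both handled groups (4 days and 1 day) were weighed, held in Broome restrainers, given water by oral gavage once a day and bled from the tail vein, and control rats underwent none of these procedures. Rats handled for 4 days were euthanized on day 5, and rats handled for 1 day and control rats on day 2. There was no unhandled group on day 5, so that for the rats handled for 4 days, the handling and the day of sampling cannot be told apart.

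A fatty acid enters most pathways of the cell only after it has been joined to coenzyme A. In the liver, the acyl-CoA that forms can be oxidized in mitochondria, built into triacylglycerol, phospholipid or cholesterol ester, or lengthened and desaturated. The synthetases differ in the chain length they prefer and in the membrane they sit on. Acsl1 is a major long-chain enzyme of hepatocytes, Acsl3 is found on the endoplasmic reticulum and on lipid droplets, Acsl4 prefers arachidonate, and Acsl5 is found on mitochondria and the endoplasmic reticulum. Acsl6 is known mainly from the brain. Acsm3 is a mitochondrial enzyme, and Acss2 makes acetyl-CoA in the cytosol and nucleus, where it can feed fatty acid and cholesterol synthesis.

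The values are intensities on a linear scale, with a mean of about 1 on each array and an array median of 0.118 to 0.125. A difference is a log2 difference, handled minus control, from limma with all groups in 1 fit, and a call needed a Benjamini-Hochberg adjusted p under 0.1 over all 31042 probe sets. The 7 hepatocyte markers with a probe set, of 8 listed, lay above the array median in every rat, with a summed intensity of 319 to 367 after 4 days, 322 to 349 after 1 day and 309 to 361 in control rats. Control rats 1, 2 and 3 stood apart from the other 27 rats, all 3 above them in 915 probe sets (2.95%) and all 3 below them in 941 (3.03%). They carry no label of their own and were singled out from earlier results of these data, in which genes of lipid synthesis stood apart, so leaving them out by itself lowers the control mean and spread of Acsl3, Acss2 and Acsl5. Differences are therefore given against all 10 control rats and against control rats 4 to 10. As this is bulk liver, fewer cells of a type and less RNA per cell cannot be told apart.

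Of the 8 probe sets above the array median in at least 1 rat, those of Acsl3, Acss2 and Acsm3 and the brighter one of Acsl5 had the widest range, with the highest of the 30 rats at 9.25, 9.06, 4.81 and 2.87 times the lowest. The promoter windows of these 4 genes, 250 bases before to 50 bases after the RefSeq start in build GRCr8, are printed because Acsl3, Acss2 and Acsl5 were all high in control rats 1 to 3, and Acsl3 and Acsm3 were both called after handling against control rats 4 to 10. Capitals mark every match, on either strand, to the CCAAT box (CCAAT), the GC box (GGGCGG), the sterol regulatory element (TCACNCCAC), the E-box (CACGTG), the nuclear receptor half-site (AGGTCA) and its direct repeat (AGGTCA, any base, AGGTCA).
Acsl3, chr9:87563351-87563650, plus strand: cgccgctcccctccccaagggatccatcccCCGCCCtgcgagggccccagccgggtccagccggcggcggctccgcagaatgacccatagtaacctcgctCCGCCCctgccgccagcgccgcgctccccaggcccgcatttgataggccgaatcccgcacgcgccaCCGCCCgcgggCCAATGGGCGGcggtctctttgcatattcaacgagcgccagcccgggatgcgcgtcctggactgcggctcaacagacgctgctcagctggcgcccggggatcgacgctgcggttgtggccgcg
Acss2, chr3:164464453-164464752, plus strand: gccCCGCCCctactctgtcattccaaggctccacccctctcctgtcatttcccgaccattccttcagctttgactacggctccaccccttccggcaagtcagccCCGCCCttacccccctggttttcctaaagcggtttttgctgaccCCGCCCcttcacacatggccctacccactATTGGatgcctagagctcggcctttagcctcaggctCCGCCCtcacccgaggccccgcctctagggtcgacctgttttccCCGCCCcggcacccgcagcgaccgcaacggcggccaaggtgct
Acsl5, chr1:264294601-264294900, plus strand: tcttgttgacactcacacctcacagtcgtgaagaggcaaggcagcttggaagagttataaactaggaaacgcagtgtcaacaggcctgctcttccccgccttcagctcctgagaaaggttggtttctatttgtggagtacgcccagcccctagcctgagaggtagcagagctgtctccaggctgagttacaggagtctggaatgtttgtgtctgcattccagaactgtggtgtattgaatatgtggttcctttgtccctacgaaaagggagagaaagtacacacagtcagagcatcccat
Acsm3, chr1:183564402-183564701, plus strand: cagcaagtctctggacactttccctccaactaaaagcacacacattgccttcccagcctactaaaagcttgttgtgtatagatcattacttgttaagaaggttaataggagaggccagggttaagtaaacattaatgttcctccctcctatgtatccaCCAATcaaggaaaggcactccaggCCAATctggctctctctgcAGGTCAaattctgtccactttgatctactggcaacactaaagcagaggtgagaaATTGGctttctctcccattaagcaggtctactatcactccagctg

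The windows of Acsl3 and Acss2 were rich in G and C (72.7% and 64.0%), and those of Acsl5 and Acsm3 less so (49.7% and 44.7%). Acsl3 had 1 CCAAT box and 4 GC boxes, and Acss2 had 1 CCAAT box and 5 GC boxes. In both, the first base of the CCAAT match lay 73 bases before the start, on the gene strand in Acsl3 and on the other strand in Acss2, and in Acsl3 a GC box followed it without a gap. Acsm3 had 3 CCAAT boxes and 1 nuclear receptor half-site, and Acsl5 had none of these motifs. These letters are common, since a CCAAT box stood in 37.5% of 33469 RefSeq windows of this length, a GC box in 33.1% and a half-site in 16.2%. The sterol regulatory element (1.12% of windows), the E-box (6.42%) and the direct repeat (0.0538%) were in none of the 7 genes' windows. A match is a description of the letters and not a binding site. The arrays' annotation holds no positions, and the start of the Acss2 window lies inside the gene's bounds in the same RefSeq table (chromosome 3, 164464124 to 164507607).

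No acyl-CoA synthetase probe set was called against all 10 control rats. After 4 days of handling 0 of 11 passed, where 0.657% of all probe sets did, and after 1 day 0 of 11, where 0.0902% did. At an unadjusted p under 0.05 there were 2 after 4 days (11.3% of all probe sets) and 5 after 1 day (9.33%). Against control rats 4 to 10, Acsl3 and Acsm3 rose after 4 days (2 of 11, with 0.828% of all probe sets called), and Acsl3, Acsm3 and Acss2 rose after 1 day (3 of 11, with 0.329% called). None fell. The symbols were chosen with these comparisons known, and nothing is read from those shares.

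**Figure D1:**
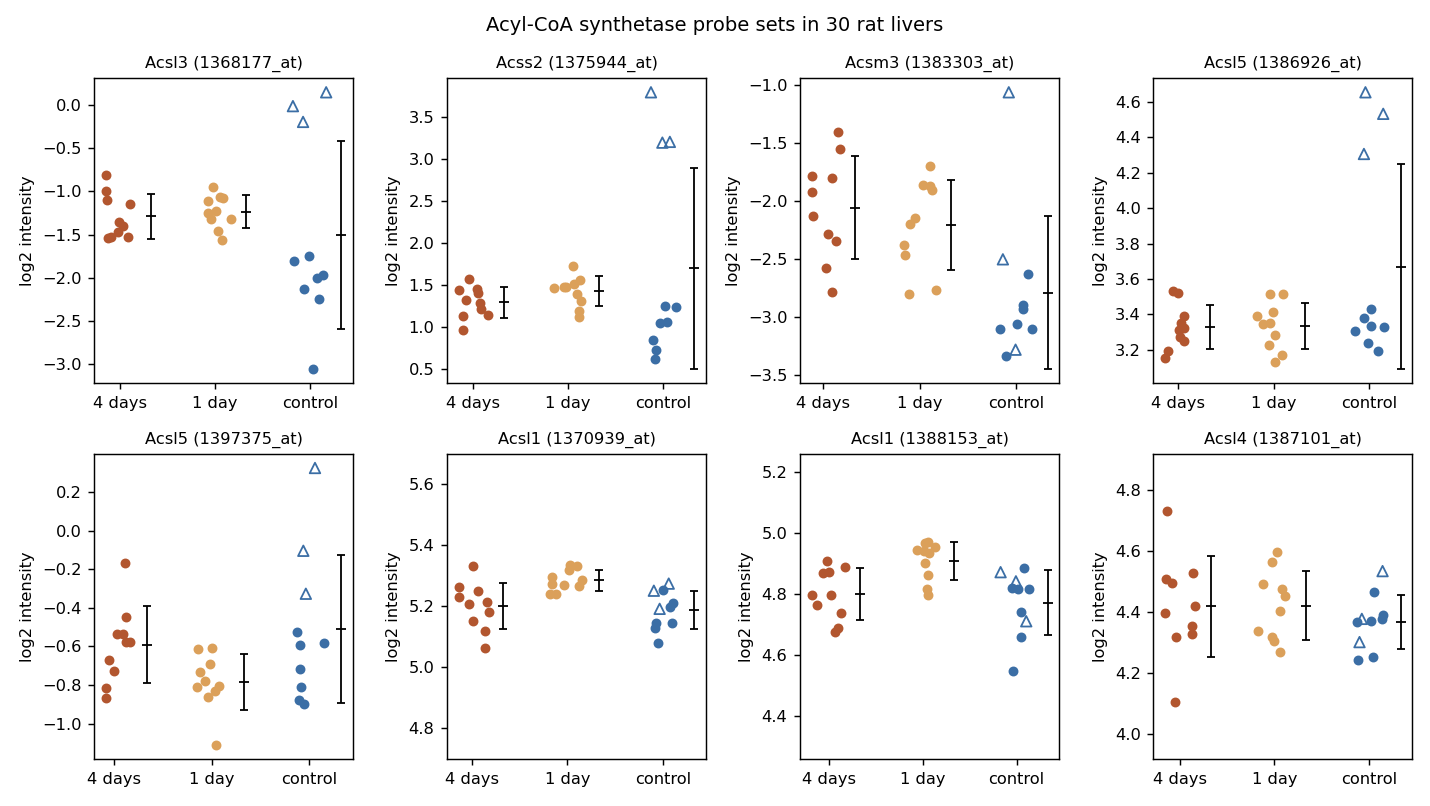
Log2 intensity of the 8 acyl-CoA synthetase probe sets above the array median in at least 1 rat, by group, with 1 point per rat and the mean and SD beside each group of 10. Open triangles are control rats 1 to 3, which lie above all other rats in Acsl3, Acss2 and Acsl5 1386926_at.

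Acsl3 had the clearest pattern over the groups. Its probe set (1368177_at, gene at chromosome 9, 87563601 to 87613078) had an intensity of 0.343 at the lowest, 0.386 at the median and 0.571 at the highest in rats handled for 4 days. In rats handled for 1 day these were 0.339, 0.424 and 0.517, and in control rats 4 to 10 they were 0.120, 0.249 and 0.297. Every handled rat of either group lay above all 7 of these control rats. Control rats 1, 2 and 3 had 0.991, 1.11 and 0.873 and lay above every handled rat.

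Against control rats 4 to 10, Acsl3 was 1.81-fold higher after 4 days (log2 difference 0.85, SE 0.14, 95% interval 0.56 to 1.15, limma adjusted p = 0.00968). After 1 day it was 1.87-fold higher (0.91, SE 0.14, interval 0.61 to 1.20, adjusted p = 0.00566). Groups apart in this way, with all handled rats higher, were found in 0.11% of probe sets after 4 days and 0.0451% after 1 day. With all 10 control rats in the fit, the difference was 0.22 (SE 0.28, adjusted p = 0.828) after 4 days and 0.27 (SE 0.28, adjusted p = 0.808) after 1 day, so the call rests on leaving out control rats 1 to 3. An offset of 1 added before the log, which is above nearly all Acsl3 intensities, lowered the difference from control rats 4 to 10 to 0.20 after 4 days and 0.21 after 1 day, both still called. The SD of Acsl3 among control rats was 1.09 on the log2 scale with all 10 and 0.44 with 7.

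Acsm3 also rose against control rats 4 to 10, but its groups were not fully apart. Its probe set (1383303_at, gene at chromosome 1, 183564652 to 183591328) had an intensity of 0.146 at the lowest, 0.246 at the median and 0.377 at the highest after 4 days. After 1 day these were 0.144, 0.222 and 0.308, and in control rats 4 to 10 they were 0.0992, 0.120 and 0.162. Of the handled rats, 9 of 10 after 4 days and 8 of 10 after 1 day lay above all 7. This probe set was dim in control rats, with 3 of those 7 above their array's median, against 10 of 10 in each handled group.

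Control rats 1 to 3 were spread widely in Acsm3, at 0.177, 0.477 and 0.103. Rat 2 was the highest of all 30, and rat 3 was lower than every handled rat. Acsm3 was 1.93-fold higher after 4 days than in control rats 4 to 10 (log2 difference 0.95, SE 0.18, interval 0.58 to 1.32, limma adjusted p = 0.0180). After 1 day it was 1.74-fold higher (0.80, SE 0.18, interval 0.43 to 1.17, adjusted p = 0.0689). Against all 10 control rats the difference was 0.73 (SE 0.22, adjusted p = 0.161) after 4 days and 0.58 (SE 0.22, adjusted p = 0.408) after 1 day. Without control rat 2 alone, the difference after 4 days was 0.92 and passed (adjusted p = 0.0251). The call after 1 day against control rats 4 to 10 was lost without any of 11 single rats. With an offset of 1 the difference from control rats 4 to 10 was 0.15 after 4 days (adjusted p = 0.0220) and 0.12 after 1 day, which was not called (adjusted p = 0.106).

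Of these genes, Acss2 was the one in which control rats 1 to 3 differed most, with a mean 5.40-fold that of control rats 4 to 10, against 4.35-fold for Acsl3 and 2.27-fold for the brighter Acsl5 probe set. Its probe set (1375944_at) had 9.19, 13.9 and 9.24 in these rats, against 1.54 to 3.32 in the other 27, so that the lowest of the 3 was 2.77 times the highest of the others. The intensity was 1.96 at the lowest, 2.47 at the median and 2.97 at the highest after 4 days, and 2.17, 2.77 and 3.32 after 1 day. Control rats 4 to 10 had 1.54, 2.07 and 2.39, and both handled groups overlapped them.

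The direction for Acss2 turned with the control rats used. Against all 10 the log2 difference was −0.40 (SE 0.31, limma adjusted p = 0.655) after 4 days and −0.27 (SE 0.31, adjusted p = 0.823) after 1 day, and neither passed. Against control rats 4 to 10 it was 0.33 (SE 0.10, interval 0.12 to 0.53, adjusted p = 0.165, 6 of 10 rats above all 7) after 4 days. After 1 day it was 0.46 (SE 0.10, interval 0.25 to 0.66, adjusted p = 0.0610, 8 of 10 above all 7), a 1.37-fold rise that passed and that was lost without any of 7 single rats. Whether 1 and 4 days differ in Acss2 was tested directly, and the difference was −0.13 (SE 0.09 with control rats 1 to 3 out, adjusted p = 0.881).

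Acsl5 was high in control rats 1 to 3 and level elsewhere. Its brighter probe set (1386926_at, gene at chromosome 1, 264294851 to 264341943) had 23.1, 25.2 and 19.8 in these 3 rats. In rats handled for 4 days it had 8.92 at the lowest, 9.98 at the median and 11.6 at the highest, in rats handled for 1 day 8.76, 10.2 and 11.4, and in control rats 4 to 10 9.14, 10.1 and 10.8. The last 3 groups lay over one another. Against control rats 4 to 10 the log2 difference was 0.01 after 4 days (SE 0.07, interval −0.12 to 0.15) and 0.02 after 1 day (SE 0.07, interval −0.12 to 0.15). Against all 10 control rats it was −0.34 after both 4 days (adjusted p = 0.391) and 1 day (adjusted p = 0.501).

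The other Acsl5 probe set (1397375_at) was also higher in control rats 1 to 3, with a mean 1.60-fold that of control rats 4 to 10, but they were not fully apart. It had 0.797, 1.25 and 0.931 in these 3 rats, of which 2 lay above all other rats and 1 lay inside the range of rats handled for 4 days (0.548 to 0.890). Rats handled for 1 day had 0.463 to 0.656 and control rats 4 to 10 had 0.536 to 0.696. The difference from control rats 4 to 10 was 0.12 (SE 0.09) after 4 days and −0.07 (SE 0.09) after 1 day. Against all 10 control rats it was −0.08 (SE 0.12, limma adjusted p = 0.849) after 4 days and −0.27 (SE 0.12, adjusted p = 0.475) after 1 day, and no comparison called it. Within groups, over the 27 other rats, the 2 Acsl5 probe sets had r = −0.08 and rho = −0.04 (permutation p = 0.719 and 0.830).

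**Figure D2:**
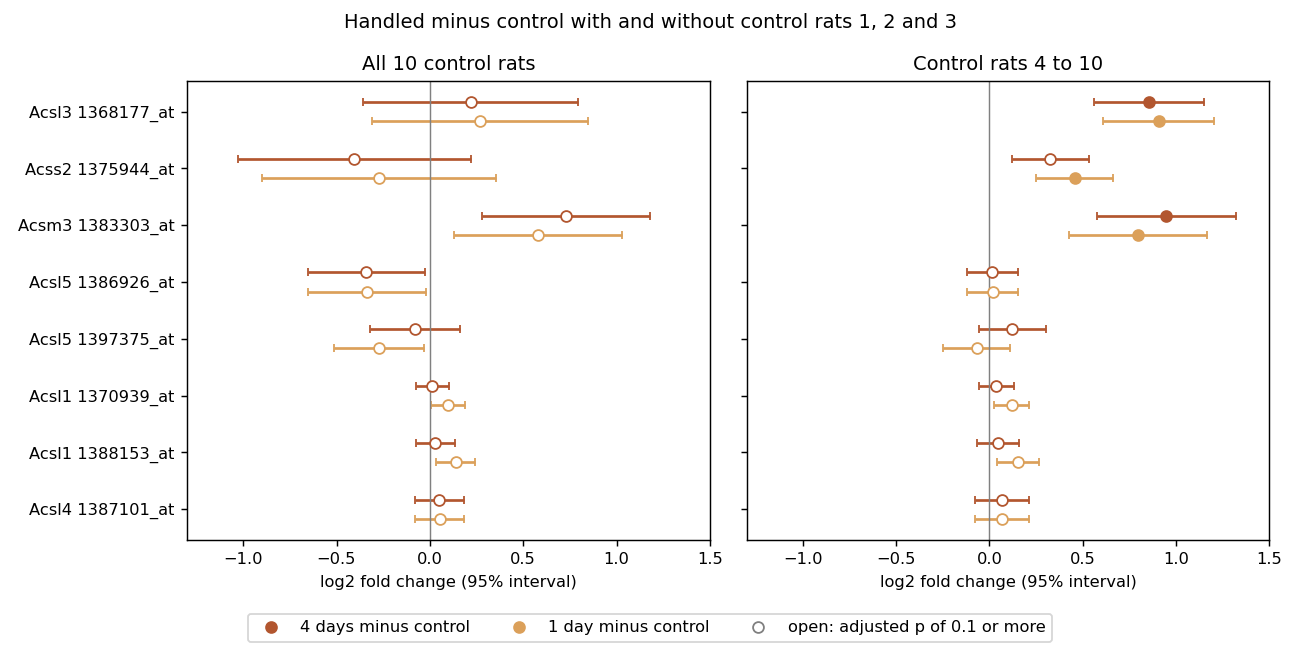
Log2 difference, handled minus control, with its 95% interval, for 8 probe sets after 4 days and 1 day, against all 10 control rats (left) and control rats 4 to 10 (right). Filled points passed an adjusted p under 0.1, and these stand in the right panel for Acsl3, Acsm3 and, after 1 day, Acss2.

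Acsl1 and Acsl4, the brightest of these probe sets, varied little between rats and stood at like levels in control rats 1 to 3. The Acsl1 probe set 1370939_at had 33.5 at the lowest, 37.0 at the median and 40.3 at the highest after 4 days, 37.8, 38.8 and 40.3 after 1 day, and 33.8, 36.6 and 38.7 in all 10 control rats. The difference from these was 0.01 (SE 0.04, interval −0.08 to 0.10) after 4 days and 0.10 (SE 0.04, interval 0.01 to 0.19, limma adjusted p = 0.489) after 1 day. With control rats 4 to 10 alone it was 0.04 (SE 0.05) after 4 days and 0.12 (SE 0.05, adjusted p = 0.419) after 1 day, when 8 of 10 rats lay above all 7. A second Acsl1 probe set, 1388153_at, had 25.5, 27.8 and 30.0 after 4 days, 27.8, 30.6 and 31.4 after 1 day, and 23.4, 28.2 and 29.6 in control rats. Here 7 of 10 rats handled for 1 day lay above all 10 control rats, with a difference of 0.14 (SE 0.05, adjusted p = 0.395) that did not pass. The same difference after 4 days was 0.03 (SE 0.05). For control rats 4 to 10 alone it was 0.04 (SE 0.05) after 4 days and 0.15 (SE 0.05, adjusted p = 0.364, 7 of 10 above all 7) after 1 day. With an offset of 1, both Acsl1 probe sets were called after 1 day against control rats 4 to 10 (adjusted p = 0.0474 for 1370939_at and 0.0996 for 1388153_at), at differences of 0.12 and 0.15.

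Acsl4 (1387101_at) had 17.2 at the lowest, 21.2 at the median and 26.5 at the highest after 4 days. These were 19.3, 21.5 and 24.2 after 1 day, and 18.9, 20.7 and 23.2 in control rats. The groups overlapped, with a difference of 0.05 (interval −0.08 to 0.18) after 4 days and 0.05 (interval −0.08 to 0.18) after 1 day. Set against control rats 4 to 10, it was 0.07 (interval −0.08 to 0.21) after 4 days and 0.07 (interval −0.08 to 0.21) after 1 day. Acsl6 was dim, as its probe sets stayed below the array median in all 30 rats, at 0.0149 to 0.0460 (1368182_at) and 0.0151 to 0.0473 (1395769_at). The remaining Acsl1 probe set (1382887_at) was as dim, at 0.0155 to 0.0590, and no fold change is given for these 3.

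No difference between the 2 handled groups was called. No acyl-CoA synthetase probe set, and no probe set of the whole table, was called between 4 days and 1 day by limma, where 1551 probe sets (5%) had an unadjusted p under 0.05. Of the 11 acyl-CoA synthetase probe sets, 2 had one, Acsl1 1388153_at (−0.11, SE 0.05, adjusted p = 0.992) and the dim Acsl1 1382887_at. With control rats 1 to 3 out of the spread there were 3, the other being Acsl5 1397375_at (0.19, SE 0.08, adjusted p = 0.798). Among the 8 brighter probe sets the log2 difference, 4 days minus 1 day, ran between −0.13 and 0.19, and the smallest adjusted p was 0.992 (0.798 with control rats 1 to 3 out of the spread). For Acsl3 it was −0.05 (interval −0.32 to 0.22 with control rats 1 to 3 out of the spread) and for Acsm3 0.15 (interval −0.19 to 0.49).

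Acsl3 and Acsm3, both called against control rats 4 to 10 and neither against all 10, showed no detectable correlation from rat to rat. Over the 27 rats other than control rats 1 to 3, with each group's mean removed, their r was −0.11 and rho −0.18 (permutation p = 0.540 and 0.390). Acsl3 and Acss2 had r = 0.31 and rho = 0.23 (p = 0.178 and 0.280). Group by group their r differed in sign, at −0.29 after 4 days, 0.25 after 1 day and 0.74 in control rats 4 to 10. Of the 21 pairs of genes, 0 had an adjusted p under 0.1, and 2 had an unadjusted p under 0.05. These were Acsl5 with Acsm3 (r = 0.52, rho = 0.52, p = 0.0119, adjusted p = 0.249) and Acsm3 with Acss2 (r = −0.38, rho = −0.35, p = 0.0436, adjusted p = 0.458). Without the 2 rats farthest from the Acsl5 median, the first was 0.45. Within groups, the first was 0.50 after 4 days, 0.57 after 1 day and 0.45 in control rats 4 to 10.

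**Figure D3:**
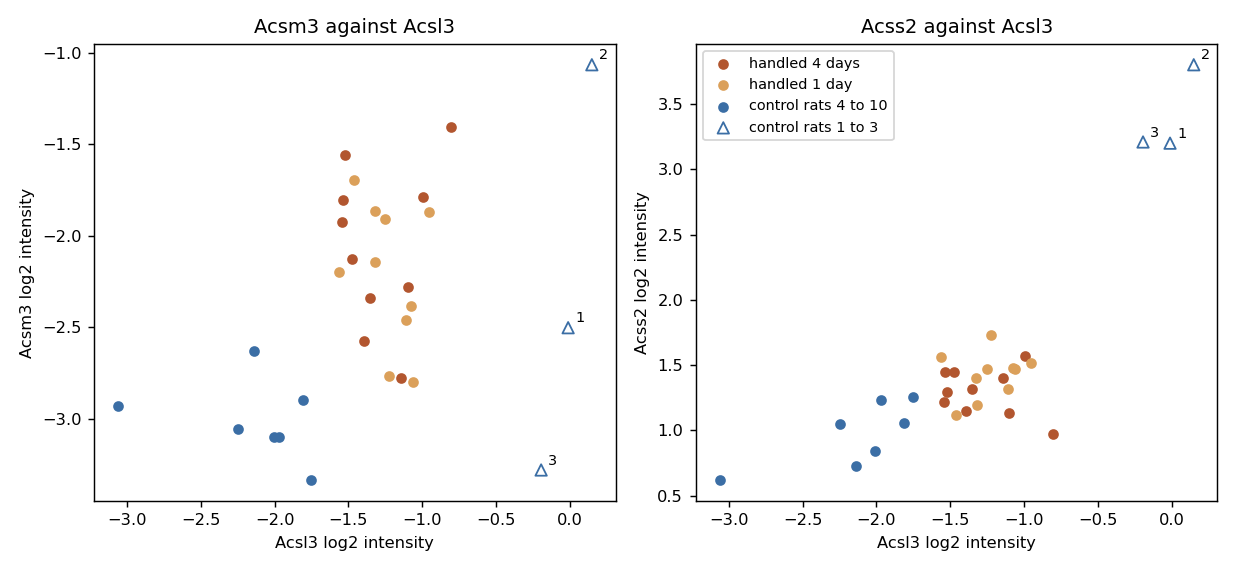
Log2 intensity of Acsm3 (left) and Acss2 (right) against that of Acsl3, 1 point per rat, with control rats 1, 2 and 3 numbered. In the left panel handled rats lie right of control rats 4 to 10 (within groups, r = −0.11), and in the right panel control rats 1 to 3 lie far above the rest.

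The genes most like each synthetase were read from the same 27 rats, as the 3 highest Pearson r among 9376 genes above the median level, so no p is given. For Acss2 these were Acaca (r = 0.74), which makes malonyl-CoA for fatty acid synthesis, Fasn (0.66), the fatty acid synthase, and Idi1 (0.66), an enzyme of isoprenoid and cholesterol synthesis. For Acsl3 they were Smim10l1 (0.71), Fdx1 (0.68), an electron carrier for mitochondrial cytochromes P450, and Sav1 (0.67), a scaffold of the Hippo pathway. For Acsm3 they were Yaf2 (0.64), Zic2 (0.62) and Spag7 (0.62). Acsl1 had Ngly1 (0.75), Gtf3c3 (0.75) and Nlk (0.72), and Acsl4 had Mbnl2 (0.73), Ext1 (0.73) and Dst (0.71). Acsl5 had Tollip, Mif4gd and Abcg5 (0.64 each). Acsl6, which was below the array median in every rat, reached like values, with Mfhas1 (0.73), S100a6 (0.68) and Trim35 (0.67).

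Other genes that activate fatty acids gave no calls. Of 17 further acyl-CoA synthetases, 14 had a probe set and 0 were called in any comparison by limma. The comparisons with control called 0.0902% to 0.828% of all probe sets, and nothing is read from the 0. The median difference of these synthetases from control rats 4 to 10 was −0.01 after 4 days and 0.06 after 1 day. That of all probe sets was −0.00353 and −0.00832. Slc27a5, which activates bile acids and very long-chain fatty acids, had the smallest p against all control rats after 4 days (0.35, SE 0.11, adjusted p = 0.190). In Aacs, the acetoacetyl-CoA synthetase of the cytosol, control rats 1 to 3 lay above all others, at 1.05 to 1.79, and in Slc27a2, a very long-chain synthetase, they lay below all others, at 26.9 to 33.5.

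Calls in genes that use or split acyl-CoA stand beside the shares of all probe sets called. Against all control rats these were 0.657% after 4 days and 0.0902% after 1 day. With control rats 4 to 10 they were 0.828% and 0.329%, and nothing is read from the counts. Of 12 thioesterases measured, of 14 listed, Acot9, a mitochondrial thioesterase, fell after 4 days against all control rats (−0.40, SE 0.10, adjusted p = 0.0949), and missed the threshold against control rats 4 to 10 (−0.43, SE 0.12, adjusted p = 0.103). All 10 genes of fatty acid uptake and acyl-CoA binding were measured and 0 were called. Of 15 genes of triacylglycerol synthesis, 1 rose after 4 days against control rats 4 to 10, Mogat2, a monoacylglycerol acyltransferase (1.60, SE 0.40, adjusted p = 0.0770), whose probe set was above the array median in 3 of 30 rats. Of 21 genes of fatty acid oxidation and ketogenesis, 0 were called, and in 14 control rats 1 to 3 lay below all others (3.03% of all probe sets). They also lay below all others in 5 thioesterases and 2 genes of triacylglycerol synthesis. In 2 thioesterases, 3 genes of uptake and binding and 1 of triacylglycerol synthesis they lay above all others (2.95% of all probe sets).

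Calls against control rats 4 to 10 were also made in the synthesis pathways that Acss2 can feed. Of 17 genes of fatty acid synthesis, 3 rose after 4 days and 3 after 1 day against control rats 4 to 10, Fasn, Acly and Srebf1 in each case, where 0.828% and 0.329% of all probe sets were called in either direction. No difference between lists was tested. After 4 days the log2 difference was 0.97 for Fasn (SE 0.15, adjusted p = 0.00417), 0.41 for Acly (SE 0.09, adjusted p = 0.0448), which makes acetyl-CoA from citrate, and 0.76 for Srebf1 (SE 0.14, adjusted p = 0.0164), a regulator of lipid synthesis. Of 18 genes of cholesterol synthesis measured, 6 rose after 4 days and 8 after 1 day. After 1 day Sqle, the squalene epoxidase, had 1.49 (SE 0.26, adjusted p = 0.0152), Idi1 1.36 (SE 0.20, adjusted p = 0.00402) and Msmo1, a sterol demethylation enzyme, 1.34 (SE 0.21, adjusted p = 0.00566). Against all 10 control rats, the only call of the 35 genes was a fall of the desaturase Scd after 4 days (−2.45, SE 0.63, adjusted p = 0.0908). The direction of Fasn, Acly and Srebf1 turned there, to −0.55, −0.64 and −0.39 after 4 days and −0.64, −0.67 and −0.36 after 1 day. Sqle, Idi1 and Msmo1 stayed higher after 1 day, at 0.72, 0.63 and 0.63. In 15 of the fatty acid synthesis genes and 17 of the cholesterol synthesis genes control rats 1 to 3 lay above all others (2.95% of all probe sets), so these calls too rest on which control rats were used. The called genes of these lists other than Mogat2, Acot9 and Scd were named after their values were seen.

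**Figure D4:**
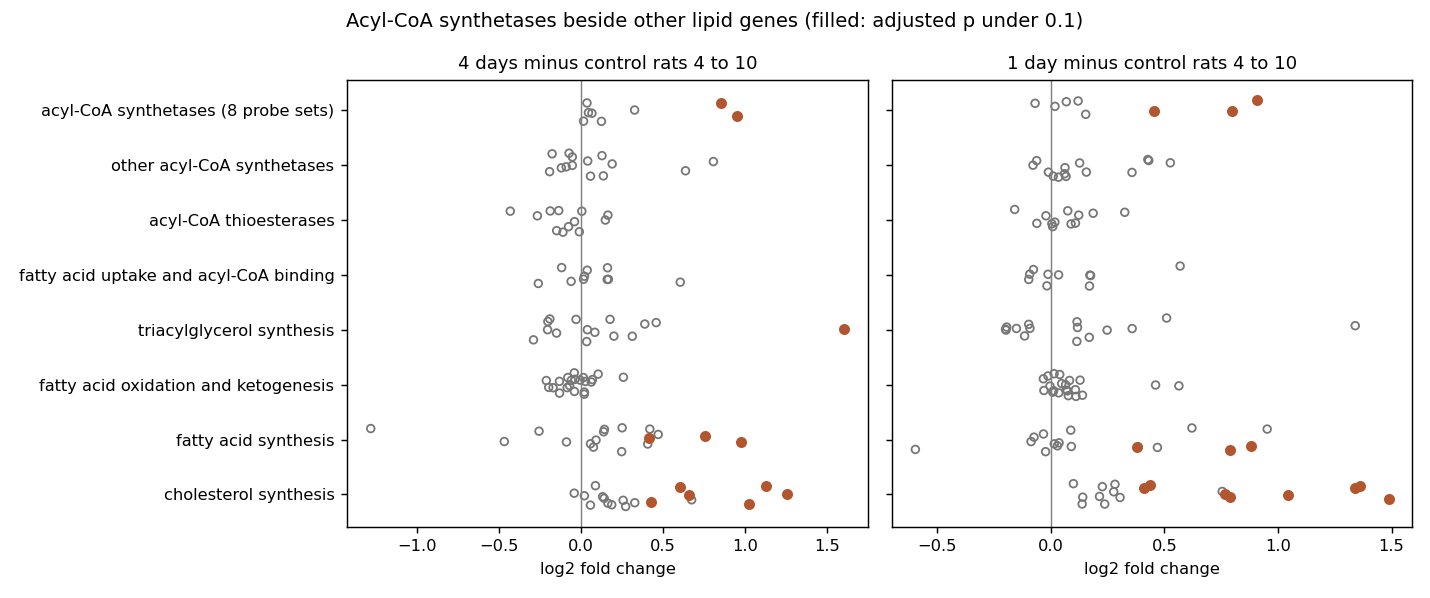
Log2 difference from control rats 4 to 10 after 4 days (left) and 1 day (right) for 8 acyl-CoA synthetase probe sets and for the genes of 7 other lists, 1 point per probe set or gene. Filled points passed an adjusted p under 0.1, and most of these stand in cholesterol synthesis, fatty acid synthesis and the synthetases.

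A measure of RNA quality moved with handling. The Gapdh control probe sets, set as the log2 of 3′ over 5′ signal, gave a ratio of 0.70 to 0.96 after 4 days, 0.66 to 0.83 after 1 day and 0.55 to 0.70 in control rats. The lowest rat after 4 days (0.7009) lay above the highest control rat (0.7006). Within groups, over 27 rats, its r was −0.01 with Acsl3 (rho = −0.05, permutation p = 0.953 and 0.816) and −0.09 with Acss2 (rho = −0.20, p = 0.676 and 0.335). With Acsm3 it was −0.49 (rho = −0.38, p = 0.0160 and 0.0598, adjusted over the 3 genes p = 0.0479 and 0.180), and −0.39 without the 2 farthest rats. Within groups, Acsm3 was lower in rats with the higher ratio, and between groups, handled rats had both the higher ratio and more Acsm3. As the ratio and handling went together, their parts in these differences cannot be told apart, also with the ratio as a covariate. With the ratio as a covariate, Acsl3 and Acsm3 kept their calls against control rats 4 to 10 after 4 days and 1 day, and Acss2 lost its call after 1 day (adjusted p = 0.201). The summed intensity of 5 erythroid markers had a median of 20.4 after 4 days, 20.6 after 1 day and 16.0 in control rats, none of them called, and its part in these differences was not tested. Of the markers of other cell types, 1 was called in a comparison with control. Nkg7, a granule protein of T and NK cells, fell after 4 days against all control rats (−0.42, SE 0.11, adjusted p = 0.0902) and against control rats 4 to 10 (−0.49, SE 0.12, adjusted p = 0.0559). After 1 day its difference was −0.09 (adjusted p = 0.842) and −0.16 (adjusted p = 0.756). The 8 T and NK markers summed to 0.821 to 1.34 after 4 days, 0.981 to 1.41 after 1 day and 0.928 to 1.58 in control rats, with none at 0, and their part in these differences was not tested.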

How the data were processed

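Total RNA from the left liver lobe was hybridized to Affymetrix rat genome arrays. The deposited table gives a linear intensity for each probe set in each rat. Its scaling to an array mean of about 1, seen in the values, is not given in the sources used here. The authors worked in GCOS and Rosetta Resolver with log10 ratios, which were left aside. The file holds 31099 probe sets, 57 of them Affymetrix controls that were not tested. Of the other 31042, 20826 have 1 gene symbol (14217 genes, with 20758 probe sets matched to RefSeq), 436 have several and 9780 have none. In lists and correlations a gene is read from its brightest probe set.

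Differences come from limma 3.58.1 in R 4.3.3 (lmFit, eBayes, two-sided, no covariate) on plain log2 intensity, with Benjamini-Hochberg adjustment over the whole table. The fits were also run on simulated data with known changes. In these data control rats 1 to 3 did not stand apart, so they do not bear on what those rats do to the fits. Correlations used 100000 permutations of rats within groups, two-sided, in Python 3.11.15. Rats are separate animals, their number limits the precision, and no 2 arrays were identical. The genes, lists and tests were chosen with earlier results of these data known. Genes named from a list are its called genes and up to 4 with the smallest p after 4 days against all control rats. Aacs and Slc27a2 are named outside this rule, after their values were seen, for where control rats 1 to 3 lay. The fits were repeated with an offset of 0.05 or 1, quantile normalization, limma's array weights, an eBayes trend, the Gapdh ratio as a covariate, replicate number as a block, the compared groups alone, the methods' t-test and a single probe set for each gene. They were also repeated without the 40% dimmest probe sets, at an adjusted p under 0.05, without control rats 1 to 3, and without each rat.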

Additional observations from a re-analysis of the deposited data

Results flagged for a closer look

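In 2 of the 33 group values of the 11 probe sets, 1 rat lay far from the other 9 of its group, by a criterion that chance meets in about 1 in 20 groups. In Acsm3 (1383303_at), control rat 2 had an intensity of 0.477, the highest of the control group, where the other 9 control rats had up to 0.177. This is one of the 3 control rats that stand apart in Acsl3, Acss2 and Acsl5. In the dimmer Acsl5 probe set (1397375_at), rat 2 of those handled for 1 day had 0.463, the lowest of its group.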

How the results depend on the processing

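Against all control rats, the calls turned on control rats 1 to 3 more than on any other choice tried. Leaving them out gave 2 called probe sets in place of 0 after 4 days and 3 in place of 0 after 1 day, and turned the log2 difference of Acss2 to 0.33 after 4 days and 0.46 after 1 day, of Acsl5 1386926_at to 0.0149 and 0.0184, and of Acsl5 1397375_at after 4 days to 0.12. Against all 10 control rats, Acsm3 was called after 4 days (1 probe set) with array weights, without the dimmest 40% of probe sets and without control rat 2, so that leaving out each of 30 rats gave 0 to 1 calls. After 1 day it gave 0. Array weights turned Acss2 to 0.0847 after 1 day and Acsl5 1397375_at to 0.0227 after 4 days, an offset of 1 turned Acsl3 to −0.00954 after 4 days, and the Gapdh covariate turned Acsl1 1370939_at to −0.0123 after 4 days, none of them called. With each rat left out, Acsl1 1370939_at ran from −0.000937 to 0.0288 and Acsl5 1397375_at from −0.128 to 0.0123, both after 4 days.

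Against control rats 4 to 10, all alternatives were added with results known. Acsl3 was called in each of 12 alternatives (adjusted p 0.00207 to 0.0770 after 4 days and 0.00125 to 0.0941 after 1 day) and without each of 27 rats. An offset of 1 lowered its log2 difference to 0.20 after 4 days and 0.21 after 1 day, and that of Acsm3 to 0.15 and 0.12. The highest Acsm3 values, 1.29 and 1.08, came with the Gapdh covariate. Calls without each rat numbered 2 to 3 after 4 days and 1 to 3 after 1 day. After 1 day, 3 calls became 1 (Acsl3) at an adjusted p under 0.05, and over the alternatives they numbered 1 to 4. Acsl1 1370939_at was called after 1 day with an offset of 1 and with the methods' t-test, and Acsl1 1388153_at with an offset of 1. Acss2 after 1 day lost its call without control rat 4, 6, 9 or 10 or rat 2, 3 or 8 of those handled for 1 day (adjusted p up to 0.169), with only the compared groups and with the Gapdh covariate. Acsm3 after 1 day lost it without control rat 5, 6, 7, 8, 9 or 10 or handled rat 1, 3, 4, 6 or 7 of that group (up to 0.173) and with an offset of 1. Acss2 after 4 days was called without the dimmest 40%, with an intensity trend and without control rat 7. With each rat left out, Acsl5 1386926_at ran from −0.00744 to 0.0342 after 4 days and from −0.00206 to 0.0410 after 1 day. Over the 12 alternatives it ran from −0.00481 to 0.102 after 4 days and from −0.00126 to 0.0926 after 1 day. The cause of these moves was not tested.

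The labels do not say that replicate numbers pair the rats. The 30 same-numbered pairs had correlations of −0.04 to 0.12, 1 over 0.1. Their median was 0.05, against −0.01 for other pairs across groups, and 8 of 30 arrays matched their own number best. Whether the numbers carry a shared effect was not tested. With the number as a replicate block, calls after 1 day against control rats 4 to 10 went to 1 in place of 3 (Acsm3 adjusted p = 0.209, Acss2 0.232), Acsl5 1386926_at to −0.00481 after 4 days and −0.00126 after 1 day, and the other counts kept their value. Over all probe sets, calls ranged over the alternatives from 5 to 493 after 4 days and 0 to 127 after 1 day against all control rats, and from 51 to 636 and 2 to 313 against control rats 4 to 10. The 3 dim probe sets and low Acsm3 levels limit what the arrays can show.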
